A study of Mus musculus with 1483 samples.

Results

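The results below follow 6 genes for subunits of voltage-gated sodium channels in single neurons of the mouse visual cortex. Scn1a, Scn3a and Scn8a encode pore-forming alpha subunits, and Scn2b, Scn3b and Scn4b encode auxiliary beta subunits. They were chosen by name, with earlier results of these data known, as 6 of the 45768 genes in the deposited expression table. Their values were taken from all 1483 cells.

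An alpha subunit forms the whole sodium-selective pore, whose opening produces the rising phase of the action potential. Beta subunits are single-pass membrane proteins that attach to it, adjust its gating and help to place it in the membrane. In cortex, the channel made from Scn1a is known above all from inhibitory interneurons, and the one made from Scn8a is concentrated at the axon initial segment, where action potentials start. The Scn4b product is known for its link to resurgent current, a brief reopening of channels during repolarization that favours fast repeated firing.

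The cells came from VISp of C57Bl/6J mice carrying an adeno-associated virus in which an enhancer drives the fluorescent protein SYFP2, and were sorted singly for SYFP2. There were 11 enhancers and 33 mice: 3 mice for each of eHGT_017h, eHGT_019h, eHGT_023h, eHGT_058h, eHGT_078h, eHGT_079h, eHGT_128h, eHGT_140h and hDLXI56i, 4 for eHGT_064h and 2 for eHGT_082h. Every mouse carried a virus, so each enhancer was set against the other 10, and no uninfected cells were compared. The sort admits only cells that express the reporter, so which cells a group holds depends on its enhancer, and the age of the mice is not given in the sources used here.

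Values are CPM, read counts scaled to a total of 1000000 in each cell, and the mouse is the unit of replication: levels are means over a mouse's cells, then means ± SD over mice. Recovered reads spanned 833 to 1018507 a cell (median 586338), and 1 read in a median cell is 1.706 CPM. Marker thresholds that used none of the 6 genes put 38.8% of the cells in a Pvalb class, 14.6% in Sst, 7.28% in Sst and Pvalb, 3.37% in Vip, 10.4% in Lamp5 and 18.8% in an excitatory class. A mouse counted for a class with at least 5 of its cells, which left 21, 12, 12, 4, 7 and 9 mice in that order. Summed markers of microglia and vessels reached at most 6.49 CPM in any mouse and class. The summed oligodendrocyte list reached 2997 CPM in 1 Sst mouse, and the astrocyte list ranged from 34.3 to 95.7 CPM in Pvalb cells and from 0.284 to 36.6 CPM in Sst cells. The oligodendrocyte list ran from 98.4 to 150.7 CPM in excitatory cells and from 14.1 to 76.04 CPM in Pvalb cells. Their part in the results was not tested.

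The members lie in the mouse genome (GRCm38, GENCODE M21) as follows. Scn3a (chr2:65457118-65567627) and Scn1a (chr2:66270778-66440840) are on the minus strand of chromosome 2, 703150 bases apart. Scn2b (chr9:45117782-45130070) and Scn4b (chr9:45138395-45154152) are plus-strand neighbours on chromosome 9 with 8324 bases between them. Scn3b (chr9:40269217-40291618) lies on the same strand of that chromosome, and Scn8a (chr15:100869858-101045938) on the plus strand of chromosome 15. RefSeq promoter windows (GRCm38.p6, from 250 bases before to 50 after the start) are shown for Scn1a, the interneuron alpha subunit gene, for the neighbours Scn4b and Scn2b, whose class patterns are set side by side in the results, and for the Scn8a start whose window holds a motif that was searched for. Capitals mark the letters AAGGTCA.
Scn1a, chr2:66440788-66441087, minus strand: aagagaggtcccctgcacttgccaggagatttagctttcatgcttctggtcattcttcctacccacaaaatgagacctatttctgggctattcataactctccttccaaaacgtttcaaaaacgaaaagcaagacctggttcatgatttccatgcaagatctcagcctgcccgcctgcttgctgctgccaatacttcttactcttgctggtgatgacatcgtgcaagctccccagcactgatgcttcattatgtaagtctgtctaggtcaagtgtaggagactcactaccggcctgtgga
Scn4b, chr9:45138374-45138673, plus strand: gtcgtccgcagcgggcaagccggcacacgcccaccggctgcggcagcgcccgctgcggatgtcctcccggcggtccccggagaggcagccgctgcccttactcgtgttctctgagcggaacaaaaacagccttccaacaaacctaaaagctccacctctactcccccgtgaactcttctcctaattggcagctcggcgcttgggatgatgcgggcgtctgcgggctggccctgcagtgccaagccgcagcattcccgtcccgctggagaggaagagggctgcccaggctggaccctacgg
Scn2b, chr9:45117626-45117925, plus strand: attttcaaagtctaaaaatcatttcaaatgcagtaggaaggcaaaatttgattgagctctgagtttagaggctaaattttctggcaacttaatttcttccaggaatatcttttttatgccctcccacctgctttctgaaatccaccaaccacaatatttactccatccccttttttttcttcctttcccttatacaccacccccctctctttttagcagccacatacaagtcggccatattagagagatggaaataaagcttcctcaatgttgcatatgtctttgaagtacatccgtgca
Scn8a, chr15:100936021-100936320, plus strand: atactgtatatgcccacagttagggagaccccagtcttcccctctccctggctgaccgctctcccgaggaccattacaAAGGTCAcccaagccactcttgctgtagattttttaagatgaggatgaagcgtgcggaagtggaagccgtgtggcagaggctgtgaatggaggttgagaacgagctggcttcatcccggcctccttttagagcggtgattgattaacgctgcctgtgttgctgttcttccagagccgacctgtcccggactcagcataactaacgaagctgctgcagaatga

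The windows differ in base composition. The Scn4b window has a GC content of 66.3%, that of its neighbour Scn2b 38.3% and that of Scn1a 47.3%, and the median over all 32851 windows is 52.7%. Both strands were searched for GGGCGG (in 35.7% of all windows), for TATAAA (in 13.6%), for TGACGT (in 7.51%), for CACGTG (in 7.15%) and for AAGGTCA (in 4.72%). The only match in the windows shown is AAGGTCA in the Scn8a one, which is a description of letters and not of a site.

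Across the 6 classes the members did not share 1 pattern, as the plot of member levels by class shows. Pvalb cells had the highest mean Scn1a and Scn4b and the lowest mean Scn3a and Scn3b. Vip cells had the highest mean Scn3a and Scn3b and no Scn4b read, and excitatory cells combined high Scn8a and Scn3a with the lowest mean Scn1a. By limma with Benjamini-Hochberg adjustment over all genes, 58 of the 90 combinations of a member and a class pair had an adjusted p under 0.05 (29 higher and 29 lower in the first class named), against 26.8% of all gene and pair combinations. The members were chosen with earlier results of these data known, so this excess is a description and was not tested. By member, 13 of 15 pairs passed for Scn8a, 12 for Scn1a, 11 for Scn3a, 10 for Scn4b, 7 for Scn3b and 5 for Scn2b.

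**Figure D1:**
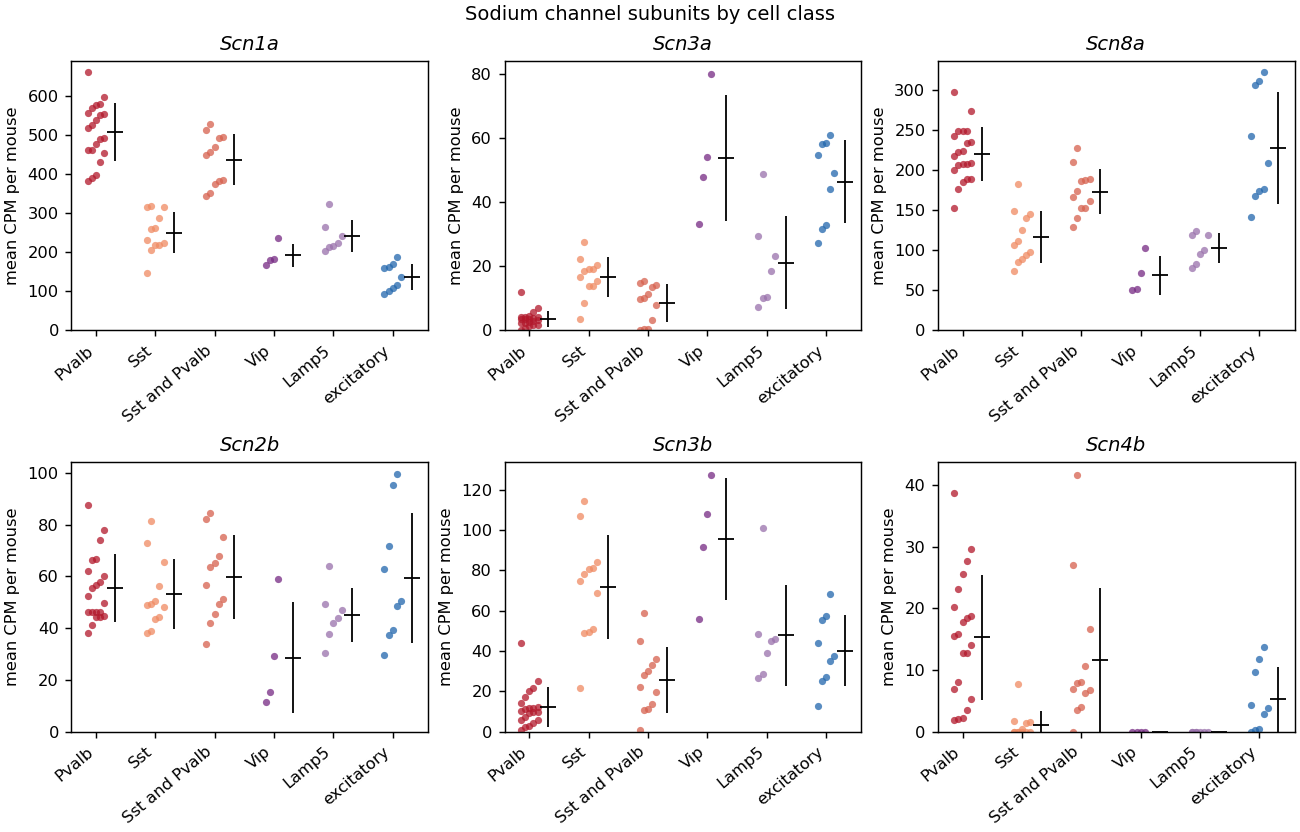
Mean CPM per mouse (vertical axes, linear, from 0) of the 6 genes in 6 cell classes. Each point is 1 mouse with at least 5 cells of the class, and black marks give the mean ± SD over mice. Scn1a in the 21 Pvalb mice lies between 381.9 and 661.3 CPM, above all 12 Sst mice, and Scn4b is at 0 in the 4 Vip and 7 Lamp5 mice.

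Read by class pair, and against the share of all genes called in the same pair, all 6 members passed in Pvalb minus Vip (29.9% of genes) and in Sst and Pvalb minus Vip (26.4%). In Pvalb minus Sst (23.8%), Pvalb minus Lamp5 (29.6%) and Sst minus Sst and Pvalb (7.54%), 5 passed. The pairs with 4 were Pvalb minus excitatory (42.6%), Sst minus Vip (22.5%), Sst minus excitatory (34.9%), Sst and Pvalb minus Lamp5 (27.6%), Vip minus excitatory (30.4%) and Lamp5 minus excitatory (31.1%). Sst and Pvalb minus excitatory (39.7%) had 3, Pvalb minus Sst and Pvalb (13.8%) and Vip minus Lamp5 (19.4%) had 2. Limma voom on recovered reads called 1 in Sst minus Vip and 1 in Vip minus Lamp5. Over all class pairs together voom called 90397 of 321360 gene and pair combinations, and its share of genes in a single pair is not given here. Sst minus Lamp5 (22.6%) had 0 by limma and 0 by limma voom on recovered reads. At an unadjusted p under 0.05 it had 0, against 6935 of 21452 genes.

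Scn1a encodes an alpha subunit of mature neurons. Its lowest, median and highest mouse means were 381.9, 518 and 661.3 CPM in Pvalb cells, against 146.1, 245.8 and 317.4 CPM in Sst cells. The groups did not overlap. On the log2(CPM + 1) scale Scn1a was higher in Pvalb than in Sst cells by 1.04 ± 0.09 (SE; adjusted p = 1.7e-15), in 8 of 8 mice that gave both classes. Means over mice fell in the order Pvalb (508 ± 74.1 CPM), Sst and Pvalb (437.2 ± 65.5 CPM), Sst (250.2 ± 52.6 CPM), Lamp5 (241.2 ± 41.3 CPM), Vip (191.9 ± 30.4 CPM) and excitatory (136.9 ± 33.9 CPM). The main test did not separate the neighbours Pvalb and Sst and Pvalb (0.23, adjusted p = 0.085), Sst and Lamp5 (0.02, adjusted p = 0.95) or Vip and Lamp5 (-0.36, adjusted p = 0.1). A fit with the mouse as a fixed effect rests on differences within mice. In it Pvalb minus Sst and Pvalb (0.28, adjusted p = 0.0041) and Vip minus Lamp5 (-0.66, adjusted p = 0.00069) passed. Sst minus Lamp5 did not (-0.22, adjusted p = 0.22). Scn1a was higher in Vip than in excitatory cells by 0.50 (adjusted p = 0.0084). This call was lost without 1 eHGT_017h mouse (0.39, adjusted p = 0.076) and with the mouse as a fixed effect (0.44, adjusted p = 0.053). No mouse gave both Vip and excitatory cells, so that fit linked this pair only through other classes. The Sst minus Vip call of 0.38 (adjusted p = 0.049) held under 6 of 13 other settings and was lost without any 1 of 14 mice, with adjusted p up to 0.189.

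Scn8a encodes the alpha subunit of the axon initial segment and nodes. Its mouse means were 153.6, 217.8 and 297.3 CPM in Pvalb cells (lowest, median and highest), against 141.4, 209.4 and 322.7 CPM in excitatory cells. The Pvalb range lay within the excitatory one, and the log2 difference was -0.012 ± 0.12 (adjusted p = 0.96). Lower means were found in Sst and Pvalb (173.4 ± 28.4 CPM), Sst (117 ± 32.1 CPM), Lamp5 (102.8 ± 18.5 CPM) and Vip cells (69.2 ± 24.4 CPM). Scn8a was higher in Pvalb than in Sst cells by 0.93 ± 0.11 (adjusted p = 1.2e-10), in 8 of 8 mice. In Vip minus excitatory cells the difference was -1.70 ± 0.18 (adjusted p = 7.7e-12), with no overlap of mice. The Sst and Pvalb minus excitatory call of -0.35 (adjusted p = 0.029) was lost with the mouse as a fixed effect (-0.43, adjusted p = 0.066). It was also lost without any of several single mice, such as 1 eHGT_023h mouse (-0.25, adjusted p = 0.15). Sst and Lamp5 cells were not separated (0.17, adjusted p = 0.46), and the Vip minus Lamp5 call of -0.58 (adjusted p = 0.02) was lost without 1 hDLXI56i mouse (-0.44, adjusted p = 0.16) or 1 eHGT_017h mouse (-0.47, adjusted p = 0.1), and with the mouse as a fixed effect (-0.38, adjusted p = 0.22).

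Scn3a encodes an alpha subunit best known from the embryonic brain. It had 0.244, 3.57 and 11.9 CPM in Pvalb cells (lowest, median and highest mouse), against 27.2, 48.9 and 60.8 CPM in excitatory cells. The groups did not overlap, and the log2 difference was -3.50 ± 0.35 (adjusted p = 1.3e-13). Between them in level were Sst and Pvalb (8.44 ± 5.95 CPM), Sst (16.6 ± 6.30 CPM) and Lamp5 cells (21.1 ± 14.5 CPM), and Vip cells were highest (53.7 ± 19.5 CPM). Neighbours that the test did not separate were Vip and excitatory (0.13, adjusted p = 0.89), Sst and Lamp5 (-0.21, adjusted p = 0.81), and Pvalb and Sst and Pvalb (-0.69, adjusted p = 0.15). The Lamp5 minus excitatory call of -1.30 (adjusted p = 0.018) was lost without 1 eHGT_058h mouse (-1.07, adjusted p = 0.081), and the Sst minus Sst and Pvalb call of 1.31 (adjusted p = 0.012) without 1 eHGT_064h mouse (1.08, adjusted p = 0.058). With the mouse as a fixed effect neither passed (-1.96, adjusted p = 0.072, and 1.37, adjusted p = 0.14). That fit also lost the calls for Sst minus Vip (-1.18, adjusted p = 0.28) and Sst and Pvalb minus Lamp5 (-1.505, adjusted p = 0.15). The Sst minus Vip call was lost without 1 eHGT_017h mouse as well (-1.43, adjusted p = 0.067).

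Among the beta subunits, Scn4b was the only one without a read in some classes, Vip and Lamp5. Its mouse means were 1.91, 15.6 and 38.8 CPM in Pvalb cells (lowest, median and highest), against 0, 0 and 7.76 CPM in Sst cells, where 7 of 12 mice had no read. The ranges overlapped in part, Scn4b was higher in Pvalb cells in 8 of 8 mice with both classes, and the log2 difference was 2.97 ± 0.39 (adjusted p = 3.8e-09). No read was found in the Vip cells of 4 mice or the Lamp5 cells of 7 mice, which at 3 reads over each group allows up to 0.159 and 0.0377 CPM. The pooled Pvalb level of 17.4 CPM was at least 109.2-fold higher than in Vip cells and at least 460.4-fold higher than in Lamp5 cells by that limit, which covers counting error only. A mean of 35.4% of the cells of a Pvalb mouse reached 10 CPM, and 11.2% of those of an excitatory mouse. The Sst minus excitatory call of -1.36 (adjusted p = 0.02) was lost without either of 2 eHGT_078h mice (-1.14, adjusted p = 0.065, and -1.19, adjusted p = 0.054). It was also lost without 1 eHGT_023h mouse (-1.06, adjusted p = 0.074), and with the mouse as a fixed effect (-0.91, adjusted p = 0.44). In that fit Pvalb minus Sst still passed (2.27, adjusted p = 0.00056). Further calls lost in it were Pvalb minus excitatory (1.355, adjusted p = 0.16) and Sst minus Sst and Pvalb (-1.71, adjusted p = 0.093). So were Sst and Pvalb minus Vip (2.12, adjusted p = 0.12), Vip minus excitatory (-1.33, adjusted p = 0.41) and Lamp5 minus excitatory (-1.75, adjusted p = 0.17).

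Scn3b, for a beta subunit that is not disulphide-linked to the pore, had its lowest mean in Pvalb cells, the class with the highest mean Scn4b. Its mouse means were 0.599, 10.2 and 44.003 CPM in Pvalb cells (lowest, median and highest), against 21.7, 76.4 and 115 CPM in Sst cells. The ranges overlapped, but Scn3b was lower in Pvalb cells in 8 of 8 mice with both classes, with a log2 difference of -2.68 ± 0.34 (adjusted p = 8.6e-10). Vip cells had the highest mean (95.8 ± 30.3 CPM), followed by Sst (71.7 ± 25.97 CPM), Lamp5 (47.7 ± 24.9 CPM), excitatory (40.2 ± 17.8 CPM), Sst and Pvalb (25.7 ± 16.2 CPM) and Pvalb cells (12.2 ± 9.72 CPM). Among Sst, Vip, Lamp5 and excitatory cells no pair passed for Scn3b, the closest being Vip minus excitatory (1.23, adjusted p = 0.092). With the mouse as a fixed effect Pvalb minus Sst still passed (-2.14, adjusted p = 0.00017). Calls lost in that fit were Pvalb minus Vip (-1.84, adjusted p = 0.067), minus Lamp5 (-1.06, adjusted p = 0.23) and minus excitatory (-1.52, adjusted p = 0.06). Also lost were Sst minus Sst and Pvalb (0.99, adjusted p = 0.36) and Sst and Pvalb minus Vip (-0.69, adjusted p = 0.66).

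Scn2b, whose product is joined to the alpha subunit by a disulphide bond, passed in the fewest pairs. Its means were 59.8 ± 16.2 CPM in Sst and Pvalb, 59.5 ± 25.1 CPM in excitatory, 55.5 ± 13.2 CPM in Pvalb, 53.2 ± 13.5 CPM in Sst, 44.96 ± 10.5 CPM in Lamp5 and 28.6 ± 21.6 CPM in Vip cells. All 5 of its calls were the pairs with Vip cells, whose 4 mice ran from 11.4 to 58.9 CPM and overlapped every other class. The difference was -1.19 ± 0.26 in Vip minus excitatory cells (adjusted p = 0.00018), a call lost with the mouse as a fixed effect (-0.89, adjusted p = 0.083), and no mouse gave both classes. In Vip minus Lamp5 cells it was -0.84 ± 0.27 (adjusted p = 0.017), a call lost without 1 eHGT_017h mouse (-0.51, adjusted p = 0.22) or 1 eHGT_019h mouse (-0.64, adjusted p = 0.15), and with the mouse as a fixed effect (-0.45, adjusted p = 0.37). Vip mice also had the lowest summed neuron markers, at 4409 to 5474 CPM against at least 7671 CPM in any mouse of another class, and the fewest genes per cell, with a median of 7881.5 against 8916 or more. The part of either in the Vip differences of all 6 genes was not tested.

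Cells with both Sst and Pvalb were set against each single-marker class. In Pvalb minus Sst and Pvalb, Scn8a was 0.34 ± 0.11 (adjusted p = 0.023) and Scn3b -0.996 ± 0.33 (adjusted p = 0.032). The Scn8a call was lost without 1 eHGT_023h mouse (0.302, adjusted p = 0.054), and the Scn3b call without any 1 of 10 mice, with adjusted p from 0.0512 to 0.0936. Within the G mice, described next, neither passed (Scn8a 0.24, adjusted p = 0.29, and Scn3b -0.93, adjusted p = 0.16). With the mouse as a fixed effect both passed (Scn8a 0.32, adjusted p = 0.029, and Scn3b -1.16, adjusted p = 0.035). Of 12 mice with both classes, Scn8a was higher in Pvalb cells in 11 and Scn3b lower in 10. In Sst minus Sst and Pvalb, Scn1a was -0.81 ± 0.102 (adjusted p = 1.5e-08), and the groups did not overlap.

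Library names begin with 2 kinds of prefix, 24 mice with a G and 9 with a J, and the labels do not say what the letter stands for. Within the G mice alone, Pvalb minus Sst differences were 1.07 for Scn1a, 0.86 for Scn8a, 2.88 for Scn4b, -1.98 for Scn3a and -2.54 for Scn3b, each with an adjusted p under 0.05. No fit was made within the J mice, whose Scn1a means ran from 431.7 to 577 CPM in Pvalb cells (6 mice) and from 206.8 to 316.2 CPM in Sst cells (4 mice). Between 0 and 12 mice gave both classes of a pair, and with the mouse as a fixed effect 40 of the 90 combinations passed, against 16% of all gene and pair combinations in that fit.

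Per kilobase of exon, the mix of subunits shifted with class, as the plot of subunit shares shows. Of the summed CPM per kilobase of the 3 alpha genes, Scn1a made up 76.1 ± 3.57% in Pvalb mice (SD, n = 21) and 40.98 ± 11.1% in excitatory mice (n = 9), where Scn8a led with 46.8 ± 9.28%. Scn3a held 16.5 ± 4.21% in Vip mice (n = 4) and 0.472 ± 0.311% in Pvalb mice. Of the 3 beta genes, Scn2b was the largest share in Pvalb cells (69.4 ± 9.30%) and Scn3b in Vip cells (73.5 ± 20.6%), while Sst cells held 46.9 ± 12.5% Scn2b and 52.2 ± 13.9% Scn3b. These shares are descriptions and were not tested.

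**Figure D2:**
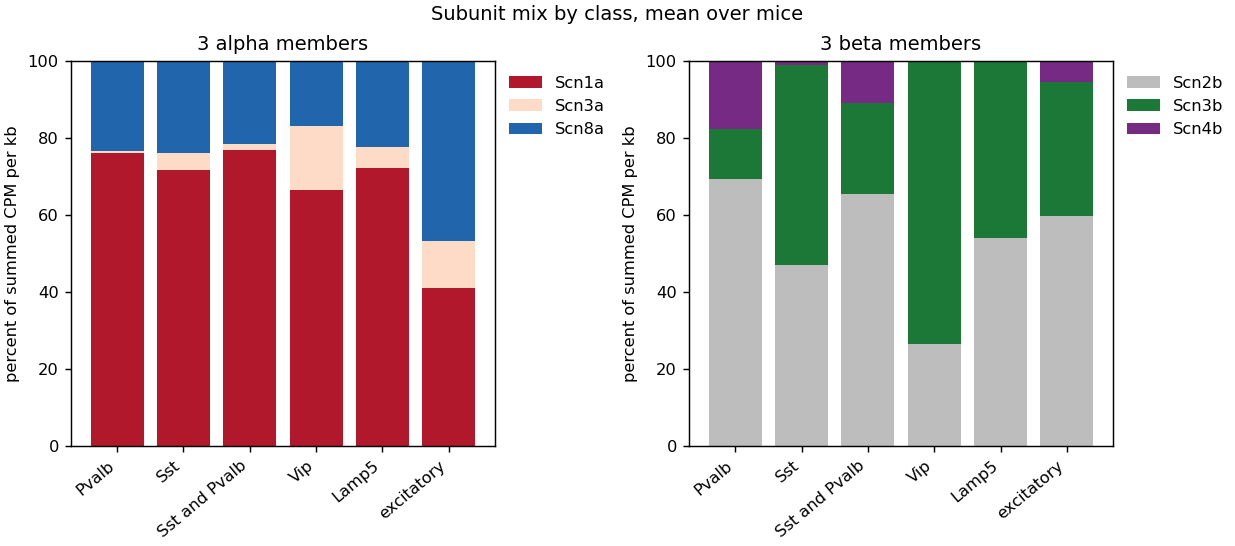
Share of each gene (stacked bars, percent of the summed CPM per kilobase of exon, mean over mice) among the 3 alpha genes on the left and the 3 beta genes on the right, by class. Scn1a takes 76.1% of the alpha sum in Pvalb cells and 40.98% in excitatory cells, and Scn3b takes 73.5% of the beta sum in Vip cells.

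Within the Pvalb class, cells with Tac1, a gene for tachykinin peptides, differed from those without it in 2 beta subunits and Scn8a. Scn3b had 0, 12.6 and 44.8 CPM with Tac1 (lowest, median and highest of 20 mice), against 0, 2.81 and 13.7 CPM without Tac1 (16 mice). Scn4b had 0, 6.85 and 25.2 CPM with Tac1, against 6.73, 22.2 and 48.95 CPM without it. In both genes the ranges overlapped, and Scn3b was higher and Scn4b lower with Tac1 in 14 of 16 mice with both subsets. The log2 difference was 1.94 ± 0.34 for Scn3b (adjusted p = 0.00016) and -1.53 ± 0.28 for Scn4b (adjusted p = 0.00028). Scn8a was lower with Tac1, with a difference of -0.33 ± 0.068 (adjusted p = 0.0011; 14 of 16 mice), which within the G mice had an adjusted p of 0.07. Thus 3 of 6 members passed, against 5.25% of all genes. Scn1a, at 499 ± 75.8 CPM with Tac1 and 541 ± 66.6 CPM without, did not pass (-0.11, adjusted p = 0.31).

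In the excitatory class, cells were split by Rorb and Fezf2. Those with Fezf2, a marker of deep-layer neurons, came from 3 mice that all carried eHGT_078h and had Scn1a at 268.1, 318.7 and 374.5 CPM, against 31.04, 46.6 and 89.1 CPM in cells with neither Rorb nor Fezf2 (lowest, median and highest of 7 mice). The groups did not overlap, and the difference was 2.62 ± 0.23 (adjusted p = 1.2e-07; 3 of 3 mice with both). Scn4b was at 13.7, 26.7 and 30.5 CPM in Fezf2 cells and 0, 0.654 and 6.92 CPM in cells with neither marker (3.58 ± 0.64, adjusted p = 0.00059). The Fezf2 mice lay within the Scn4b range of the Pvalb mice. In this pair 3 of 6 members passed, against 12.2% of all genes. The remaining call, Scn2b at 0.85 (adjusted p = 0.025), was lost without any of the 3 eHGT_078h mice (0.95, adjusted p = 0.071; 0.91, adjusted p = 0.096; 0.65, adjusted p = 0.19) or without 1 eHGT_058h mouse (0.79, adjusted p = 0.051), and with the mouse as a fixed effect (0.89, adjusted p = 0.062).

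Cells with Rorb, a marker of middle-layer neurons, had the most Scn8a, Scn3a and Scn2b of the excitatory subsets by mean. Scn8a was at 184.9, 392.2 and 410.3 CPM in Rorb cells (lowest, median and highest of 5 mice), against 111.2, 133.7 and 148.1 CPM in cells with neither marker. The groups did not overlap (1.39 ± 0.16, adjusted p = 1.8e-06; 5 of 5 mice). Against the same cells, Scn2b was higher by 1.70 ± 0.21, Scn1a by 1.37 ± 0.19 and Scn3a by 1.001 ± 0.18, and 5 of 6 members passed, against 29.4% of all genes. The fifth, Scn3b at -0.87 (adjusted p = 0.02), was lost without 1 eHGT_058h mouse (-0.74, adjusted p = 0.067).

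Against Fezf2 cells, Rorb cells were lower in Scn1a (-1.25 ± 0.25) and Scn4b (-3.81 ± 0.69) and higher in Scn3a (1.65 ± 0.24) and Scn8a (0.98 ± 0.20). In all 5 of 6 members passed, against 25.8% of all genes. The Scn2b call of 0.85 (adjusted p = 0.022) was lost without either of 2 eHGT_078h mice (0.71, adjusted p = 0.17; 0.79, adjusted p = 0.097) or 1 eHGT_058h mouse (0.78, adjusted p = 0.051), and with the mouse as a fixed effect (0.749, adjusted p = 0.12). All Fezf2 mice carried eHGT_078h and 1 mouse gave both subsets, but every Rorb and Fezf2 mouse also gave cells with neither marker. With the mouse as a fixed effect Rorb minus Fezf2 cells passed in Scn1a (-1.38, adjusted p = 0.0052), Scn3a (1.57, adjusted p = 0.0041), Scn4b (-4.24, adjusted p = 0.0038) and Scn8a (1.03, adjusted p = 0.0072). Over the 6 subset pairs, 16 of 35 tests passed (Scn4b was too low to test in the Lamp5 pair), against 13.1% of all genes. Sst cells with and without Hpse (2.91% of genes) and Lamp5 cells with and without Ndnf (1.1%) had no member called by limma. At an unadjusted p under 0.05, 2 members passed for Hpse (2575 of 16675 genes) and 1 for Ndnf (1902 of 16429). Voom called 0 for Hpse and 1 for Ndnf, and 13756 of 105869 gene and pair combinations over all subset pairs together.

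**Figure D3:**
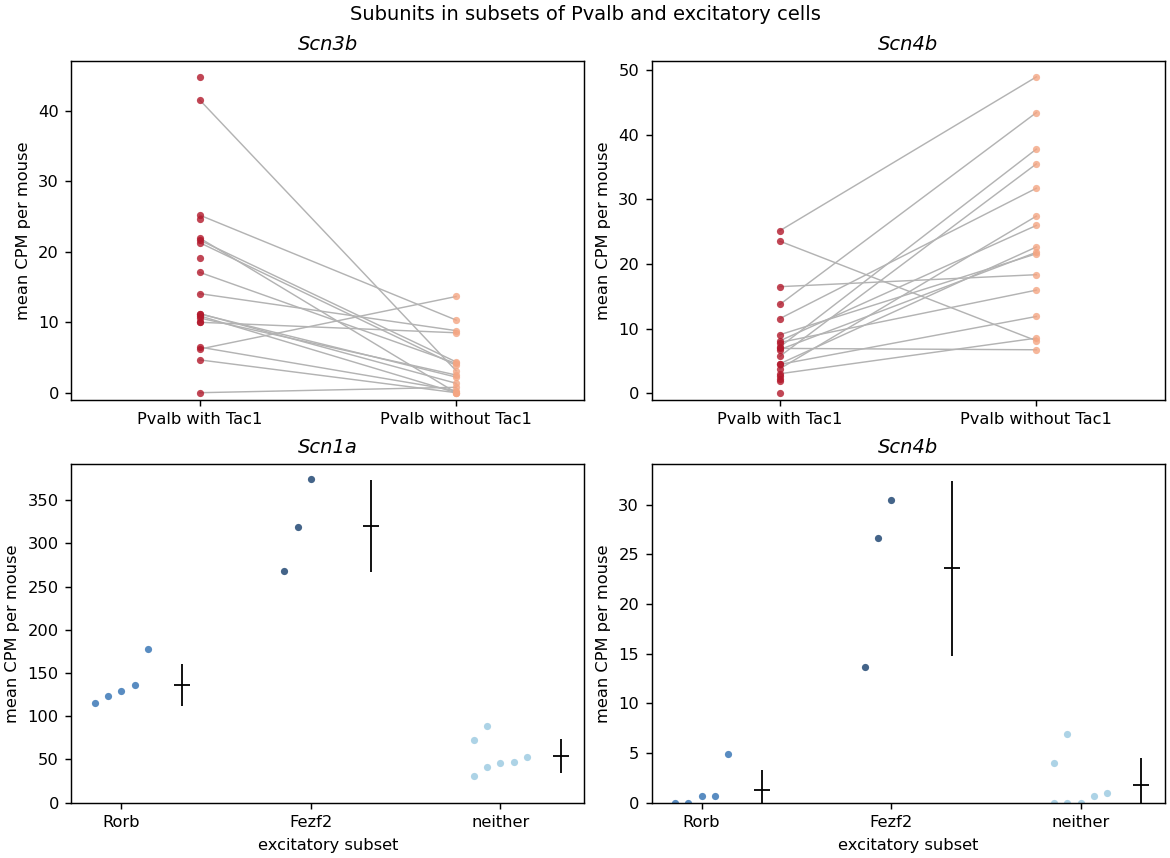
Mean CPM per mouse (linear axes). Top: Scn3b and Scn4b in Pvalb cells with and without Tac1, where points are mice and grey lines join the 2 subsets of a mouse. Bottom: Scn1a and Scn4b in excitatory cells with Rorb, with Fezf2 or with neither, with black marks for the mean ± SD. Scn4b in Fezf2 mice lies between 13.7 and 30.5 CPM, above all mice of the other excitatory subsets.

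A mean over all cells of a mouse joins the mix of its classes with the level per cell. On these means all 6 members differed between the 11 enhancers by the limma F test, with adjusted p from 4.7e-10 for Scn1a to 0.0082 for Scn2b, as did 53.4% of all genes. Within the G mice Scn2b did not pass (adjusted p = 0.074). Against the other 10 enhancers, 29 of 66 pairs of an enhancer and a member passed, against 14% of all genes, and 15 of the 29 held whichever mouse was left out. By enhancer, 5 members passed in eHGT_017h (12.9% of genes) and eHGT_058h (32.4%), 4 in eHGT_019h (25%) and eHGT_128h (11.2%), and 3 in eHGT_078h (32.1%), eHGT_082h (3.27%) and eHGT_140h (12.5%). In eHGT_079h 2 passed (4.08%), and none passed by limma in eHGT_023h (1.11%), eHGT_064h (7.88%) or hDLXI56i (11%). In those 3, 0, 1 and 1 members passed at an unadjusted p under 0.05 in the same order. Of 18932 genes, 2553, 4148 and 4874 did so, and voom called 0 members in each. Over all enhancers together voom called 29671 of 207944 gene and enhancer combinations.

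**Figure D4:**
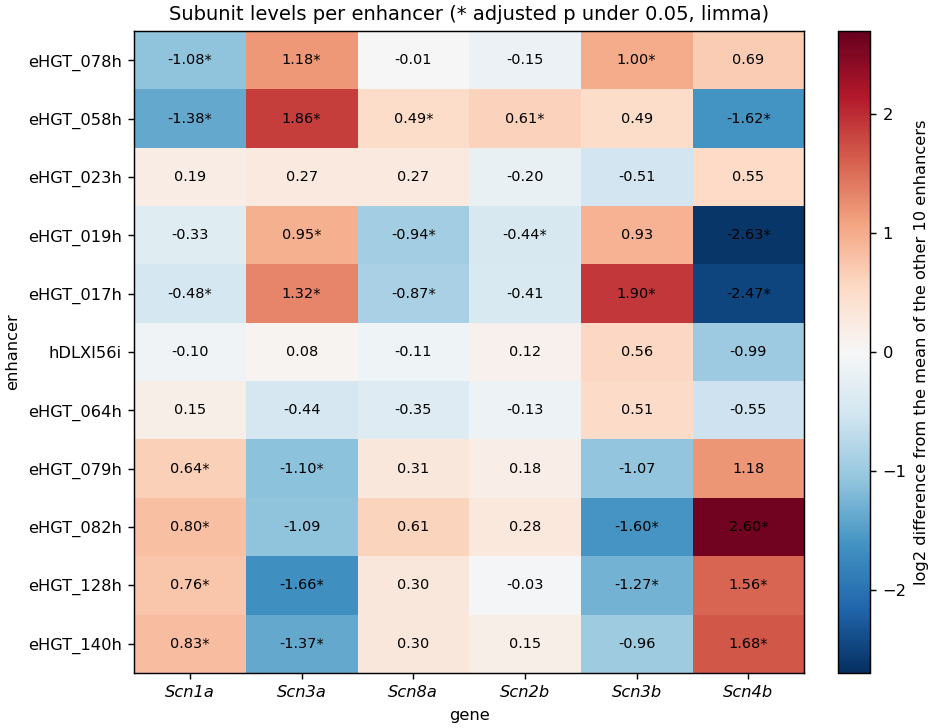
Log2 difference of each gene (columns) in each enhancer (rows) from the mean of the other 10 enhancers, on log2(mean CPM + 1) per mouse. Colour runs from blue for lower to red for higher, and asterisks mark an adjusted p under 0.05. The 4 lowest rows, eHGT_079h to eHGT_140h, are red for Scn1a and Scn4b and blue for Scn3a and Scn3b, with Scn1a differences from 0.64 to 0.83.

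The enhancers that labelled mostly Pvalb cells gave mice with high Scn1a. Scn1a had 521, 632.9 and 453 CPM in eHGT_140h mice, of whose cells 91.97% were Pvalb, and 480.4, 494 and 548 CPM in eHGT_128h mice (81.6% Pvalb). Every one of these mice was above the median of the mice of other enhancers, and the differences were 0.83 ± 0.14 (adjusted p = 0.0002) and 0.76 ± 0.14 (adjusted p = 0.00063). Scn3a had 5.78, 7.17 and 3.48 CPM in eHGT_140h (-1.37 ± 0.28, adjusted p = 0.0013) and 5.23, 3.16 and 4.58 CPM in eHGT_128h mice (-1.66 ± 0.28, adjusted p = 0.0002), all below that median. The eHGT_140h call did not hold within the G mice (-1.14, adjusted p = 0.064). Scn4b had 18.05, 14.9 and 15.2 CPM in eHGT_140h (1.68 ± 0.45, adjusted p = 0.011) and 10.4, 25.1 and 12.4 CPM in eHGT_128h (1.56 ± 0.45, adjusted p = 0.019). These Scn4b calls were lost without either of 2 eHGT_140h mice (1.59, adjusted p = 0.075; 1.71, adjusted p = 0.055) and either of 2 eHGT_128h mice (1.20, adjusted p = 0.21; 1.68, adjusted p = 0.071), and that of eHGT_140h within the G mice (1.65, adjusted p = 0.074).

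The 2 mice of eHGT_082h (80.5% of cells Pvalb) had the highest mean Scn4b of the enhancers, with 24.3 and 35.9 CPM, and Scn1a at 520.0 and 522 CPM. The differences were 2.60 ± 0.54 for Scn4b (adjusted p = 0.0078) and 0.803 ± 0.17 for Scn1a (adjusted p = 0.0092). Without either mouse neither call held, at 2.88, adjusted p = 0.068 and 2.33, adjusted p = 0.48 for Scn4b. In eHGT_079h mice (61.7% Pvalb) Scn1a was 529, 441.6 and 441.4 CPM (0.64 ± 0.14, adjusted p = 0.01), a call lost without 1 mouse (0.55, adjusted p = 0.19).

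The enhancers that labelled excitatory cells gave low Scn1a. It had 161, 109.3 and 128.8 CPM in eHGT_058h mice (76.7% excitatory) and 169.3, 153.4 and 152.8 CPM in eHGT_078h mice (97.1%). All were below the median of the other mice, with differences of -1.38 ± 0.14 (adjusted p = 1.8e-08) and -1.08 ± 0.14 (adjusted p = 4.7e-07). Scn3a was higher in both, at 38.3, 54.3 and 51.004 CPM in eHGT_058h (1.86 ± 0.28, adjusted p = 5.5e-06) and 31.6, 33.5 and 26.4 CPM in eHGT_078h (1.18 ± 0.28, adjusted p = 0.0014). Scn4b was 6.15, 0 and 0.36 CPM in eHGT_058h mice and 13.7, 9.28 and 4.08 CPM in eHGT_078h mice, a difference that was not tested.

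Mice of eHGT_017h (51.7% of cells Sst and 22.03% Vip) and eHGT_019h (64.8% Lamp5) had little Scn4b. It was 0, 0.932 and 0 CPM in eHGT_017h (-2.47 ± 0.45, adjusted p = 0.0003) and 0.329, 0 and 0.073 CPM in eHGT_019h (-2.63 ± 0.45, adjusted p = 4.3e-05). Scn8a was also lower in both, by differences of -0.87 ± 0.16 and -0.94 ± 0.16. Scn3b had 95.1, 92.4 and 95.4 CPM in eHGT_017h mice, a difference of 1.90 ± 0.35 (adjusted p = 0.00047).

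With the class held fixed, few tests over enhancers passed after adjustment. Within 4 classes, 1 of 24 F tests passed, against 0.624% of all genes: Scn4b in Pvalb cells (adjusted p = 0.046), where 1.28% of genes passed. No member passed in Sst (0.191% of genes), Sst and Pvalb (0.00636%) or excitatory cells (0.983%) by limma. At an unadjusted p under 0.05 these classes had 0, 1 and 5 members in that order, and voom called 0 in each. Scn4b in Pvalb cells averaged 34.2 ± 6.44 CPM in eHGT_082h mice (n = 2), 16.7 ± 3.16 CPM in eHGT_140h mice (n = 3), 7.91 ± 9.11 CPM in hDLXI56i mice (n = 3) and 4.09 ± 2.35 CPM in eHGT_064h mice (n = 4). The call held without 17 of the 33 mice left out in turn (adjusted p from 0.00232 to 0.122) and under 5 of 11 other settings (0.00382 to 0.345).

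Other sodium channel genes were read alongside, 6 of 9 listed being testable. In Pvalb minus excitatory cells 2 were higher and 2 lower, where 42.6% of all genes were called (list median -0.15, all genes -0.07). Scn9a, an alpha subunit gene best known from sensory neurons, stood at 42.6 ± 10.3 CPM in Pvalb cells and 4.15 ± 3.18 CPM in excitatory cells (3.34 ± 0.315, adjusted p = 1.2e-14). Scn2a1, for the alpha subunit of immature axons and excitatory neurons, stood at 58.2 ± 22.8 CPM in Pvalb cells and 305.3 ± 42.2 CPM in excitatory cells (-2.44 ± 0.16, adjusted p = 1.2e-21). In Pvalb minus Sst cells 2 were higher and 1 lower, where 23.8% of all genes were called, with Scn9a at 2.56 ± 0.28, adjusted p = 1.6e-11 and Scn2a1 at -1.67 ± 0.14, adjusted p = 1.5e-15.

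Of 12 genes for channel partners and the axon initial segment, 2 were higher and 7 lower in Pvalb minus excitatory cells (list median -0.43, all genes -0.07), where 42.6% of all genes were called. In Pvalb minus Lamp5 cells 4 were higher and 4 lower (0.33, all genes -0.02), where 29.6% were called. The 2 with the largest differences from Lamp5 cells were Fgf13 and Fgf12, intracellular factors that bind the tail of the alpha subunit. Fgf13 was at 100.4 ± 21.4 CPM in Pvalb cells and 1126 ± 130.2 CPM in Lamp5 cells (-3.48 ± 0.24, adjusted p = 2.4e-20). Fgf12 was at 1028 ± 143.1 CPM in Pvalb cells and 110.9 ± 28.9 CPM in Lamp5 cells (3.23 ± 0.104, adjusted p = 1.7e-38).

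Over the 65 mouse-by-class means, which share classes, mice and libraries, the members' log2 levels gave Pearson r of 0.63 for Scn1a with Scn4b, 0.65 for Scn8a with Scn4b, -0.755 for Scn1a with Scn3a and -0.71 for Scn3b with Scn4b. Among 7093 genes averaging 20 CPM or more over these points, the 3 most like each of 5 members by Pearson r were Cplx1, Bend6 and Kcnc1 for Scn1a (0.94, 0.91 and 0.91), Osbpl1a, Mgst3 and Rapgef5 for Scn8a (0.81, 0.78 and 0.77), Ptk2b, Chst1 and Ramp1 for Scn3a (0.83, 0.81 and 0.81), Ube2q1, Tmem14c and Mgst3 for Scn2b (0.67, 0.66 and 0.63) and Pgrmc1, Marcksl1 and Cd200 for Scn3b (0.85, 0.82 and 0.82). Across cells within a Pvalb mouse, the median Spearman rho over 19 mice was -0.27 for Scn3b with Scn4b, which is weak and given as a description.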

How the data were processed

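The labels describe single SYFP2-positive cells sorted into SMARTerv4 buffer. The deposited table holds CPM per cell, made by the authors from reads, with STAR and mm10 listed in the submitters' processing notes. CPM steps gave whole reads within 0.01 read for 100% of values, so reads per cell were recovered. Genes were annotated with GENCODE release M21.

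CPM were averaged over the cells of a mouse, or of a mouse and class, and log2(mean CPM + 1) was fitted with limma 3.58.1 (trend, robust) in R 4.3.3, keeping genes that reached 1 CPM in 2 or more means. The mouse was a block with a correlation estimated on 2000 genes in class and subset fits. Benjamini-Hochberg adjustment ran over all genes within a contrast, and an adjusted p under 0.05 was called. Log2 differences understate changes of low genes.

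GABAergic cells had Gad1 or Gad2 at 10 CPM and Slc17a7 under 10, excitatory cells the reverse, and subclass markers counted at 100 CPM. Named genes are the members, the 2 largest called list genes per class pair, of which some are shown, and the 3 genes most like each member, which for Scn4b are not reported here. Members and lists were chosen with earlier results of these data known. The labels do not say how mice were raised or batched. The fits were tested on simulated data.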

Additional observations from a re-analysis of the deposited data

Results flagged for a closer look

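Among 56 combinations of a gene and a group of 4 to 10 mice, 9 held a mouse far from the others. Chance flags about 1 in 20 separate combinations. The combinations share mice, cells and libraries, so the count is not read against that rate. Scn3b was 100.96 CPM in the Lamp5 cells of 1 eHGT_019h mouse, against 26.8 to 48.2 CPM in the other mice, and 110.9 CPM in its Lamp5 cells with Ndnf. 1 eHGT_064h mouse had 408.4 CPM of Scn1a and 64.95 CPM of Scn2b, against at most 328.3 and 44.81 CPM in the other mice of that enhancer. In Lamp5 cells with Ndnf, Scn1a was 298.6 CPM in 1 eHGT_019h mouse and Scn2b 30.68 CPM in 1 hDLXI56i mouse. Scn4b was 10.97 CPM in the Sst cells with Hpse of 1 eHGT_079h mouse, where the other mice had 0. In excitatory Rorb cells, 1 eHGT_058h mouse had 4.883 CPM of Scn4b and 184.9 CPM of Scn8a, against at least 383.3 CPM of Scn8a in the others.

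In 3 cases every mouse of one enhancer moved opposite to every mouse of another, and none of these differences was tested. Scn2b in Pvalb minus Sst cells averaged 0.18 in eHGT_064h and -0.21 in hDLXI56i, 0.395 apart on the log2 scale. Scn4b in Pvalb minus Sst and Pvalb cells averaged 2.69 in eHGT_023h and -1.10 in eHGT_064h, 3.79 apart. The same comparison averaged 1.29 in eHGT_079h, 2.38 above eHGT_064h.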

How the results depend on the processing

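No direction of a called result reversed under any setting tried. Among results not called some did, such as Scn3b in Sst minus Vip cells (-0.41, and 0.30 with the mouse as a fixed effect). Of the 58 class calls 31 held under every setting and omitted mouse, of the 29 enhancer calls 13, and of the 16 subset calls 12. Enhancer calls fell to 18 with a log2 difference of at least 1, class calls to 33 with at least 10 cells (10 of 15 pairs could be fitted), and subset calls to 7 in the G mice (3 of 6 pairs). Within classes, the single call became 0 with a pseudocount of 0.1, no filter, the prefix letter as a covariate, G mice only, voom on recovered reads (added after the data were seen) or a 30 CPM threshold, and 2 with the mean of log2 per cell or a 300 CPM threshold. With 1 mouse left out, calls ranged from 56 to 59 for classes, 27 to 31 for enhancers, 14 to 17 for subsets, 0 to 1 within classes, and stayed at 6 for the F test over enhancers. The causes were not tested. The planned edgeR alternative was not run. Voom on the recovered reads called 55 combinations of a member and a comparison for classes, 29 for enhancers and 17 for subsets. Over all genes it called 90397 of 321360 combinations for classes, 29671 of 207944 for enhancers and 13756 of 105869 for subsets. Limma on log2 CPM called 86216 for classes. Classes and subsets were also compared with the mouse as a fixed effect. This fit called 40 member and pair combinations for classes and 14 for subsets, against 16% and 10.6% of those of all genes. Enhancer groups share no mice, so no such fit could be made for them. At the median depth 1 read is 1.706 CPM, which limits Scn4b and Scn3a in single cells.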
